A study of Homo sapiens with 18 samples.

Results

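Cells given a degrader of the fusion transcription factor PAX3-FOXO1 had less Ser5 Pol II than controls at 6 genes. These were CCDC154, PITPNM3, EXTL1, KIAA1549, FAM81A and NTN5. Ser5 Pol II is the form of RNA polymerase II that is phosphorylated on serine 5 of its tail. The level of PAX3-FOXO1 itself was not measured in these data. The 6 are grouped as genes outside the classic list of targets of the fusion. The genes were picked because earlier results of these data showed a loss there, and their regions were then taken by position, as all measured regions that overlapped the span of each gene in hg19. This gave 7 regions of the 12123 in the table, with 2 in EXTL1 and 1 in each of the other 5 genes. Their changes against DMSO are therefore a description. Each is given with its SE and no p-value, and where members are counted as past a threshold, nothing is read from the count. The cells were Rh30, an alveolar rhabdomyosarcoma line, in which PAX3-FOXO1 carries an FKBP tag in all groups, controls included. Cells were given solvent (DMSO) or the degrader dTAG47 at 500 nM, for 2 h or for 4 h. Each of the 3 groups had 2 ChIP-seq libraries, A and B. The labels name neither a clone nor separate cultures behind them, so the spread between libraries may be technical.

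PAX3-FOXO1 joins the DNA-binding domains of PAX3, a paired domain and a homeodomain, to the activation domain of FOXO1, and drives alveolar rhabdomyosarcoma. dTAG47 bridges the FKBP tag to the ubiquitin ligase subunit cereblon, so that the tagged protein is sent to the proteasome. Serine 5 of the Pol II C-terminal repeats is phosphorylated by the CDK7 kinase of TFIIH as transcription starts, and Ser5 Pol II is usually densest just past transcription start sites. The 6 genes have no known pathway in common. PITPNM3 (also Nir1) belongs to a family of membrane-associated phosphatidylinositol transfer proteins. EXTL1 is a glycosyltransferase of the exostosin family, which builds heparan sulfate chains. KIAA1549 encodes a membrane protein best known as the fusion partner of BRAF in pilocytic astrocytoma, NTN5 a member of the netrins, secreted guidance proteins, and CCDC154 and FAM81A coiled-coil proteins.

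The Ser5 regions lay near the 5′ end in 5 cases and inside the gene in 2. A region was called 5′ when its centre was within 2.5 kb of the upstream edge of the gene's span, which runs somewhat past the gene itself. By that measure the regions of KIAA1549 (chr7:138666190-138666590, in hg19 as all region positions here), FAM81A (chr15:59730363-59730763), NTN5 (chr19:49175545-49175945), PITPNM3 (chr17:6458833-6459233) and the first region of EXTL1 (chr1:26348602-26349002) were 5′ regions, at 0.71, 1.26, 1.56, 1.87 and 1.60 kb from the edge. The second region of EXTL1 (chr1:26361959-26362359) lay 1.74 kb from the downstream edge, and is called its 3′ region here. The region of CCDC154 (chr16:1487379-1487779) lay 7.32 kb into a span of 10.9 kb, in the body of the gene. In the RefSeq gene order of another build (GRCh38.p14), CCDC154 overlaps PERCC1, PITPNM3 overlaps PIMREG and NTN5 overlaps the pseudogene SEC1P. Reads do not tell which of 2 overlapping genes Pol II was transcribing.

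Promoter windows of 4 of the 5 genes with a 5′ region are printed because they show how unlike in sequence the starts of these genes are. Each runs from 250 bases before the annotated start to 50 after it, 5′ to 3′ on the gene's strand, from RefSeq (GRCh38.p14), which held windows for all 6 genes. Capitals mark every CG dinucleotide and, in EXTL1, the E-box CAGCTG. The windows were chr17:6556506-6556805 (minus strand) for PITPNM3, chr7:138981340-138981639 (minus) for KIAA1549, chr15:59437936-59438235 (plus) for FAM81A and chr1:26021525-26021824 (plus) for EXTL1. Because the builds differ, how far they overlap the Ser5 regions was not determined.
PITPNM3: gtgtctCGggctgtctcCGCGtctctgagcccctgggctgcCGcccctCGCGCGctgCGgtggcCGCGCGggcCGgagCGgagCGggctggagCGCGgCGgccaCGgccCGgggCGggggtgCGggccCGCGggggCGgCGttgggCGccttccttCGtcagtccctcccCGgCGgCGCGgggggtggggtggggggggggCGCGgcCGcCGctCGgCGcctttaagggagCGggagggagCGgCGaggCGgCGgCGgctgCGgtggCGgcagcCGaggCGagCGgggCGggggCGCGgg
KIAA1549: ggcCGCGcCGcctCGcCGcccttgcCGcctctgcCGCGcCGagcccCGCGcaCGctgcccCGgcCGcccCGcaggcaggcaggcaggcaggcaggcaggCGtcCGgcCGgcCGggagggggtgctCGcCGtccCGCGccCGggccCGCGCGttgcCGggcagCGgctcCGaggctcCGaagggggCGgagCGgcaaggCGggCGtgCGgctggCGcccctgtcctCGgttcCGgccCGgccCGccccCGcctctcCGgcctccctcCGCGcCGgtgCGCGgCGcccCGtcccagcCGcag
FAM81A: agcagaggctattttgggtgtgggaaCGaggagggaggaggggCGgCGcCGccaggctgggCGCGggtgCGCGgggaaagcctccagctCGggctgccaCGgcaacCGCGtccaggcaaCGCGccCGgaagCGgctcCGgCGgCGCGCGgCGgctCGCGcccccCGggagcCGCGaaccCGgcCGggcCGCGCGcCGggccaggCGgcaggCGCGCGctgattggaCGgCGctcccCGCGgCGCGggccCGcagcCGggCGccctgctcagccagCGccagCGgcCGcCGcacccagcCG
EXTL1: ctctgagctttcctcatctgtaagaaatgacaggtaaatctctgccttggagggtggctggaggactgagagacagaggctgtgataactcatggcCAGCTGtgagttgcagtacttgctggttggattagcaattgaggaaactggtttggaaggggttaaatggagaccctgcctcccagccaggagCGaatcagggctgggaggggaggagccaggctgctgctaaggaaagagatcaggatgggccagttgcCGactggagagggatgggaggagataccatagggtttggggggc

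PITPNM3, KIAA1549 and FAM81A had CpG-rich windows, each with 51 CG dinucleotides in 300 bases and a GC content of 84.0%, 84.7% and 81.0%. The EXTL1 window held 2 CG dinucleotides at a GC content of 54.7%, an observed-to-expected CpG ratio of 0.102 against a median of 0.579 over 35116 RefSeq promoter windows. CCDC154 and NTN5 lay between these, with 14 and 17 CG dinucleotides and ratios of 0.408 and 0.471. The motif CAGCTG, the E-box form preferred by MyoD-family factors, was found in 2 of the 6 windows, those of CCDC154 and EXTL1, and in 17.9% of all windows. Letters related to PAX3 binding were in 0 of the 6, searched on both strands as TAATTA (4.84% of all windows), GTCACG (9.02%) and a spaced palindrome of homeodomain sites (0.365%), of which the first and last can share letters. TGANTCA (AP-1, 7.71% of all windows) and TATAAA (the TATA box, 11.5%) were also in 0 of the 6. These are matches of letters in 300 bases and show nothing about binding.

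The 7 regions started from very different levels of Ser5 Pol II. In DMSO, CCDC154 had a mean of 193 CPM (read counts divided by library size, itself adjusted by TMM) and stood above 96.5% of all regions. KIAA1549 and FAM81A, at 36.4 and 37.0 CPM, stood above only 15.8% and 16.4%, and below the median region at 63.8 CPM. Totals over all regions ran from 962251 counts in 4 h library B to 1792013 in DMSO library A. The share of counts in the top 3 regions of the table was 4.17% in 4 h library B and 1.77% to 3.21% in the other libraries, so that 4 h library B stood apart in both respects. The cells were measured in bulk, so a loss in all cells and a loss in some of them cannot be told apart.

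CCDC154 had the lowest log2 fold change of all 12123 regions at both times. In mice, a deletion that takes in Ccdc154 causes osteopetrosis. Its region had 209 CPM in DMSO library A and 177 CPM in library B, 74.7 and 70.7 CPM at 2 h, and 47.9 and 55.4 CPM at 4 h. Both DMSO libraries were more than 100 CPM above the highest treated library, and the 4 h libraries were both below the 2 h libraries. The log2 fold change was -1.41 (SE 0.15) at 2 h and -1.93 (SE 0.16) at 4 h, which left 37.6% and 26.3% of the DMSO signal. On the CPM scale, 85.1% of the loss seen at 4 h had been reached at 2 h.

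PITPNM3 had a loss most of which was already there at 2 h. Its region had 72.9 and 69.8 CPM in DMSO, 25.1 and 36.5 CPM at 2 h, and 31.5 and 21.3 CPM at 4 h. The treated libraries of both times overlapped each other and lay far below DMSO. The log2 fold change was -1.22 (SE 0.20) at 2 h and -1.37 (SE 0.21) at 4 h, the 3rd and 4th lowest of all regions, and 90.2% of the 4 h loss had been reached at 2 h. In CCDC154 and PITPNM3 the values without any 1 library ran from -1.51 to -1.28 and from -1.50 to -0.97 at 2 h, and from -2.02 to -1.80 and from -1.74 to -1.17 at 4 h.

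**Figure D1:**
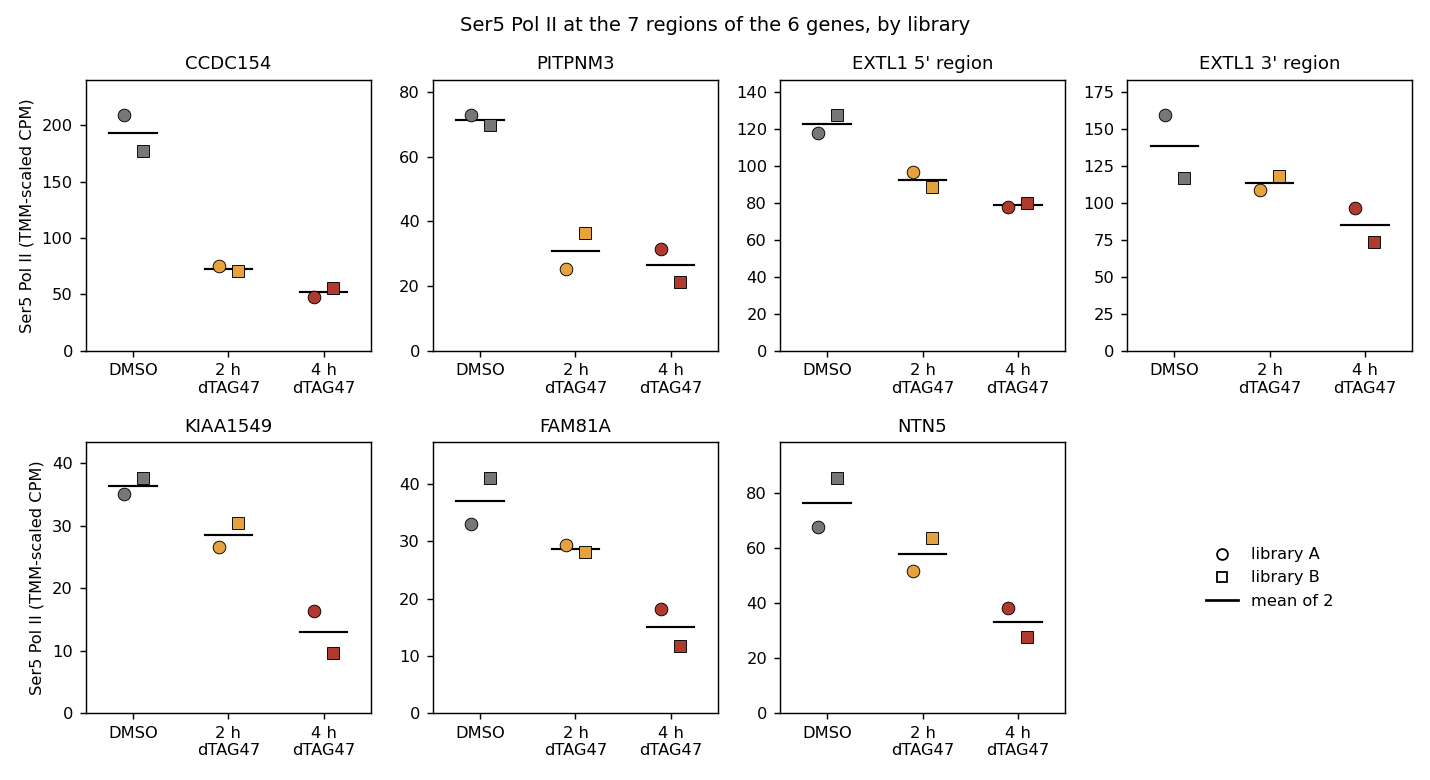
Ser5 Pol II in TMM-scaled CPM (y axis, from 0, its own scale in each panel) for the 7 regions in each of the 6 libraries, by group (x axis). Circles are library A, squares library B, and bars the mean of 2. CCDC154 and PITPNM3 are low from 2 h. Every region has its lowest mean at 4 h, and only in PITPNM3 do the 2 h and 4 h libraries overlap. Only in the EXTL1 3′ region do DMSO and 2 h overlap.

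KIAA1549, FAM81A and NTN5 fell at 4 h, and their 2 h levels lay between those in DMSO and at 4 h. KIAA1549 had 35.1 and 37.6 CPM in DMSO, 26.5 and 30.4 CPM at 2 h, and 16.4 and 9.59 CPM at 4 h. The 3 groups did not overlap and went down in order. Its log2 fold change was -0.35 (SE 0.25) at 2 h and -1.39 (SE 0.30) at 4 h, when 38.1% of the DMSO signal was left, and 33.8% of the 4 h loss had been reached at 2 h. The value at 4 h rests on few reads. There were 26 and 9 counts at 4 h, with exact 95% Poisson intervals of 17.0 to 38.1 and 4.12 to 17.1 for counting error alone, against 65 and 55 counts in DMSO. Without any 1 library the log2 fold change ran from -0.44 to -0.25 at 2 h and from -1.91 to -1.14 at 4 h.

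FAM81A, which encodes a protein found at synapses, had nearly the same levels. It had 32.9 and 41.1 CPM in DMSO, 29.3 and 28.1 CPM at 2 h, and 18.3 and 11.7 CPM at 4 h. The 2 h libraries lay just under DMSO and the 4 h libraries well under both. The log2 fold change was -0.35 (SE 0.25) at 2 h and -1.22 (SE 0.29) at 4 h, and 37.6% of the 4 h loss had been reached at 2 h. Here too the 4 h counts were low, at 29 and 11. Without any 1 library the log2 fold change ran from -0.51 to -0.19 at 2 h (-0.19 without DMSO library B) and from -1.64 to -0.99 at 4 h.

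NTN5 started from a higher level than these. It had 67.5 and 85.5 CPM in DMSO, 51.7 and 63.9 CPM at 2 h, and 38.4 and 27.7 CPM at 4 h. The groups did not overlap, although DMSO library A was only slightly above 2 h library B. The log2 fold change was -0.40 (SE 0.17) at 2 h and -1.14 (SE 0.20) at 4 h, and 43.2% of the 4 h loss had been reached at 2 h. Without any 1 library the log2 fold change ran from -0.57 to -0.22 at 2 h, where it was weakest without DMSO library B (-0.22) and 2 h library A (-0.25), and from -1.45 to -0.96 at 4 h.

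EXTL1 had the log2 fold changes closest to 0 of the 6 genes at 4 h. The 5′ region had 118 and 127 CPM in DMSO, 96.4 and 88.2 CPM at 2 h, and 77.5 and 79.9 CPM at 4 h, with no overlap between groups. Its log2 fold change was -0.40 (SE 0.14) at 2 h and -0.64 (SE 0.15) at 4 h, when 64.3% of the DMSO signal was left. The 3′ region had 159 and 117 CPM in DMSO, 109 and 118 CPM at 2 h, and 96.4 and 73.5 CPM at 4 h. Its 2 DMSO libraries were far apart, and DMSO library B lay between the 2 h libraries. The log2 fold change was -0.30 (SE 0.15) at 2 h and -0.68 (SE 0.16) at 4 h, when 62.4% was left. EXTL1 was the only gene with more than 1 measured region, so its ends could be set side by side. Their log2 fold changes differed by less than their standard errors at both times with all libraries, but this depended on single libraries. Without DMSO library A the 5′ region was at -0.46 (SE 0.17) and the 3′ region at -0.05 (SE 0.17) at 2 h. At 4 h without that library they were at -0.70 (SE 0.17) and -0.43 (SE 0.18). At 2 h without 2 h library A they were at -0.47 and -0.24. At 4 h the order was the other way without DMSO library B (5′ -0.57, 3′ -0.86) and without 4 h library A (-0.61 and -0.92). Without any 1 library the 2 h values ran from -0.47 to -0.34 in the 5′ region and from -0.48 to -0.05 in the 3′ region. The 4 h values ran from -0.70 to -0.57 and from -0.92 to -0.43.

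Over the 7 regions, the median log2 fold change was -0.40 at 2 h and -1.22 at 4 h, against -0.01 over all regions at each time. At 2 h, 2 of the 7 regions, CCDC154 and PITPNM3, were called lower (edgeR's quasi-likelihood F test, with an adjusted p under 0.05 over all regions by Benjamini-Hochberg), a call made at 0.396% of all regions. At 4 h, 7 of 7 were called lower, against 0.487% of all regions. In 6 of the 7, both 2 h and both 4 h libraries lay below both DMSO libraries, which held for 11.5% of all regions, the exception being the EXTL1 3′ region. Since the genes were picked on these contrasts, nothing is read from these counts. By the rank of their fold changes at 4 h, from the lowest, CCDC154 was 1st, KIAA1549 3rd, PITPNM3 4th, FAM81A 7th and NTN5 10th of all regions, while the EXTL1 3′ and 5′ regions were at places 87 and 118.

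**Figure D2:**
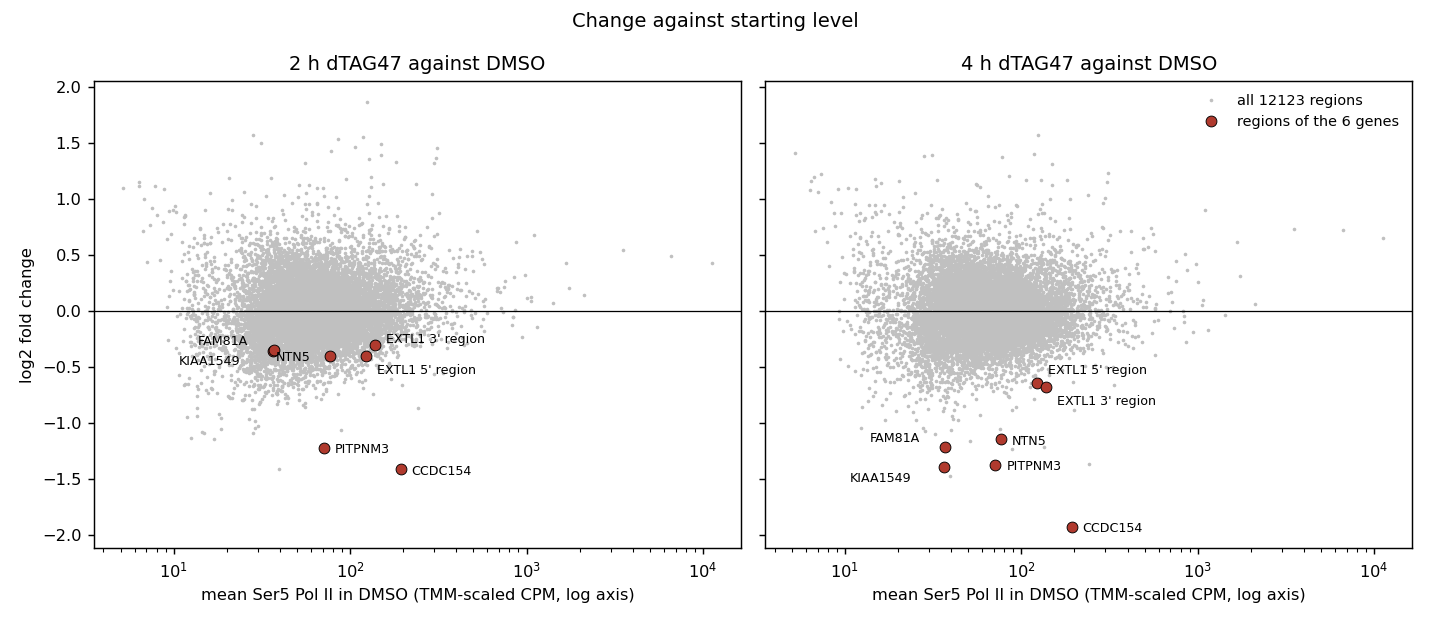
Log2 fold change against DMSO (y axis) at 2 h (left) and 4 h (right), by mean DMSO level in TMM-scaled CPM (x axis, log scale). Grey points are all 12123 regions and red points the 7 regions of the 6 genes, which at 2 h lie in the cloud except for CCDC154 (-1.41) and PITPNM3 (-1.22), and at 4 h lie at its lower edge or below it.

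The calls of 3 genes at 4 h depended on single libraries. Without 4 h library B, 3 of the 7 regions were still called, CCDC154, PITPNM3 and NTN5, while KIAA1549 (log2 fold change -1.14), FAM81A (-0.99) and the 5′ and 3′ regions of EXTL1 (-0.65 and -0.52) were not. FAM81A also missed the threshold without DMSO library B (-1.05), the EXTL1 5′ region without 4 h library A (-0.61) and the EXTL1 3′ region without DMSO library A (-0.43). At 4 h, 5 of the 7 regions were lower in library B than in library A, the exceptions being CCDC154 and the EXTL1 5′ region. Library B was also the shallowest and had the highest share of counts in the 3 top regions; the part of these in the values was not tested.

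The direct comparison of 4 h with 2 h asked whether the loss went further between the times. The 4 h libraries also entered the choice of the genes, so this is not an independent test for those chosen at 4 h. KIAA1549 had the lowest log2 fold change of all 12123 regions (-1.04, SE 0.32), FAM81A the 4th lowest (-0.87, SE 0.31) and NTN5 the 6th lowest (-0.75, SE 0.21). CCDC154 was at -0.51 (SE 0.18), the EXTL1 3′ and 5′ regions at -0.38 (SE 0.17) and -0.23 (SE 0.16), and PITPNM3 at -0.15 (SE 0.26). In 6 of the 7 regions both 4 h libraries were below both 2 h libraries, against 16.4% of all regions, PITPNM3 being the exception. The adjusted p was 0.998 for each of the 7 (edgeR), and 0% of all regions were called. At an unadjusted p under 0.05, edgeR had 5 of the 7 regions lower, and 251 lower (2.07%) and 145 higher among all regions. DESeq2 and limma-voom also called 0 regions. At an unadjusted p under 0.05, DESeq2 had 4 of the 7 lower, against 0.214% of all regions, and limma-voom had 5 of the 7, against 2.03%. The tools used the same counts, and the treated libraries entered the choice of the genes. Nothing is therefore read from these counts of members. The difference in time course between CCDC154 and PITPNM3 on one side and KIAA1549, FAM81A and NTN5 on the other was noticed in the values and was not tested.

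Within 100 kb of the gene spans lay 22 other regions. At either time, 0 of them were called lower and 0 higher (edgeR, adjusted p under 0.05), nor did limma-voom or DESeq2 call any. Over all 12123 regions, edgeR called 0.396% lower at 2 h and 0.487% at 4 h, and 269 and 184 regions higher. With calls this rare, 0 of 22 does not show how far the loss reached. At an unadjusted p under 0.05, edgeR had 6 of the 22 lower at 2 h (27.3%, against 5.44% of all regions) and 5 at 4 h (22.7%, against 5.09%), and 0 higher. Within 200 kb, 1 of 37 regions was called, and it was higher at 2 h (chr19:49375530-49375930, near NTN5, log2 fold change 0.57, SE 0.15, edgeR adjusted p = 0.0281). As 269 of all regions were called higher at 2 h, nothing is read from this call. Among the 22 regions within 100 kb, log2 fold changes at 2 h ran from -0.53 to 0.22, with -0.08 as the median. At 4 h these 22 ran from -0.59 to 0.17, with -0.17 as the median. The closest was 6.24 kb downstream of the PITPNM3 span (chr17:6347357-6347757), with 0.00 (SE 0.15) at 2 h and 0.05 (SE 0.15) at 4 h. The nearest downstream of NTN5 (chr19:49149245-49149645, 14.4 kb away) had the lowest 4 h value of the nearest regions, -0.51 (SE 0.21, edgeR adjusted p = 0.275). The 7 regions within 100 kb of CCDC154 had medians of -0.36 (2 h) and -0.35 (4 h) on the log2 scale and lowest values of -0.53 and -0.50 (lowest edgeR adjusted p = 0.0575 at 2 h and 0.172 at 4 h). They held 4 of the 6 regions at an unadjusted p under 0.05 at 2 h and 3 of the 5 at 4 h. Whether the values of these 7 regions and of the CCDC154 region are related was not tested.

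**Figure D3:**
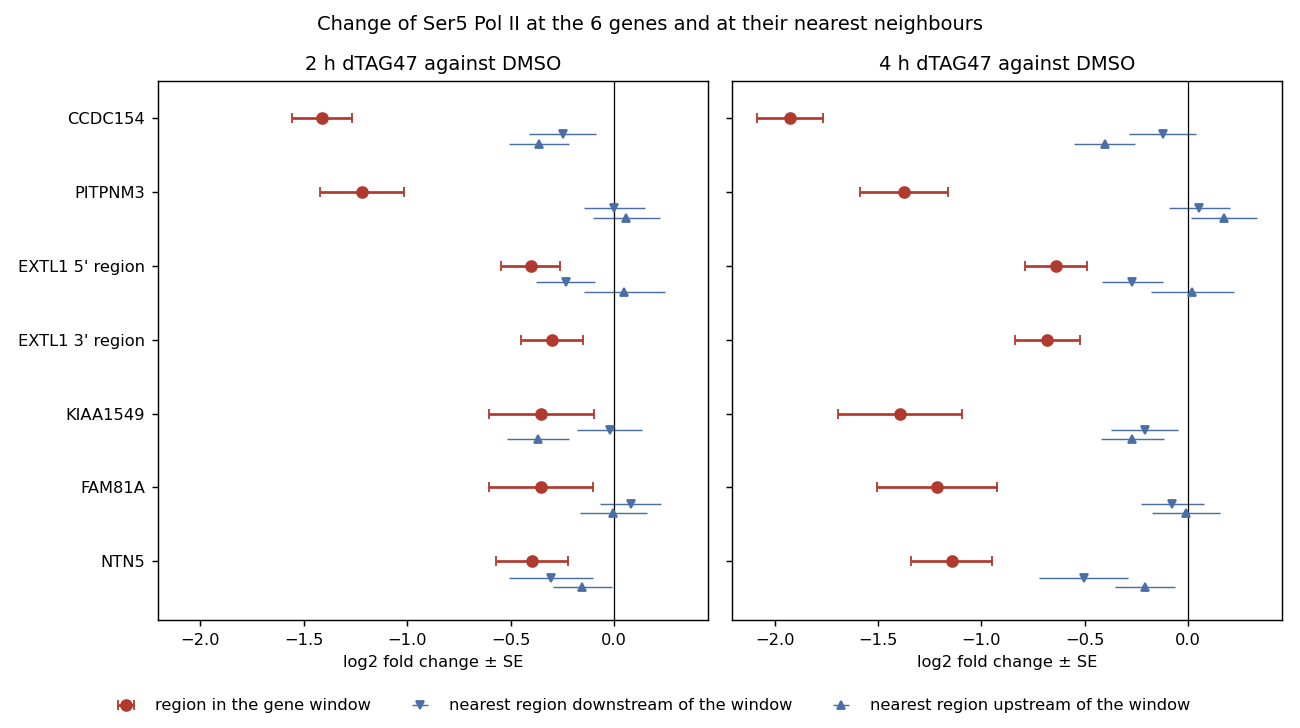
Log2 fold change against DMSO with its SE (x axis) at 2 h (left) and 4 h (right) for the 7 regions (red circles) and the nearest measured region downstream and upstream of each gene span (blue triangles, drawn once for EXTL1). At 4 h the gene regions lie between -1.93 and -0.64, and the nearest neighbours between -0.51 and 0.17.

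Set against these neighbours in the same library, the regions gave values that do not depend on how libraries are scaled. The CCDC154 region held 37.1% and 34.0% as many counts as the 7 regions within 100 kb in DMSO, 17.4% and 16.0% at 2 h, and 10.1% and 12.8% at 4 h. PITPNM3, against 3 regions, had 35.5% and 36.6% in DMSO, 12.7% and 17.5% at 2 h, and 16.6% and 10.2% at 4 h. These shares use the same counts as the fold changes above and are no second measurement of the loss. NTN5, against 8 regions, had 7.70% and 9.42% in DMSO, 5.78% and 7.55% at 2 h, and 4.70% and 3.42% at 4 h.

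For the other genes the comparison rests on 1 or 2 nearby regions. FAM81A had 46.6% and 51.3% of the counts of its 1 neighbour in DMSO, 37.2% and 39.8% at 2 h, and 28.2% and 13.3% at 4 h. KIAA1549 had 34.6% and 39.6% in DMSO, 35.5% and 38.8% at 2 h, and 18.4% and 13.4% at 4 h, so that DMSO and 2 h overlapped and 4 h lay apart. Its 1 neighbour, 53.4 kb upstream, was itself at a log2 fold change of -0.37 (SE 0.15, edgeR adjusted p = 0.223) at 2 h. The EXTL1 5′ region had 70.1% and 74.4% of the counts of 2 neighbours in DMSO, 63.3% and 57.7% at 2 h, and 51.5% and 54.3% at 4 h, with no overlap, while the 3′ region averaged 81.6%, 74.3% and 57.0% in the same order, with DMSO and 2 h overlapping.

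**Figure D4:**
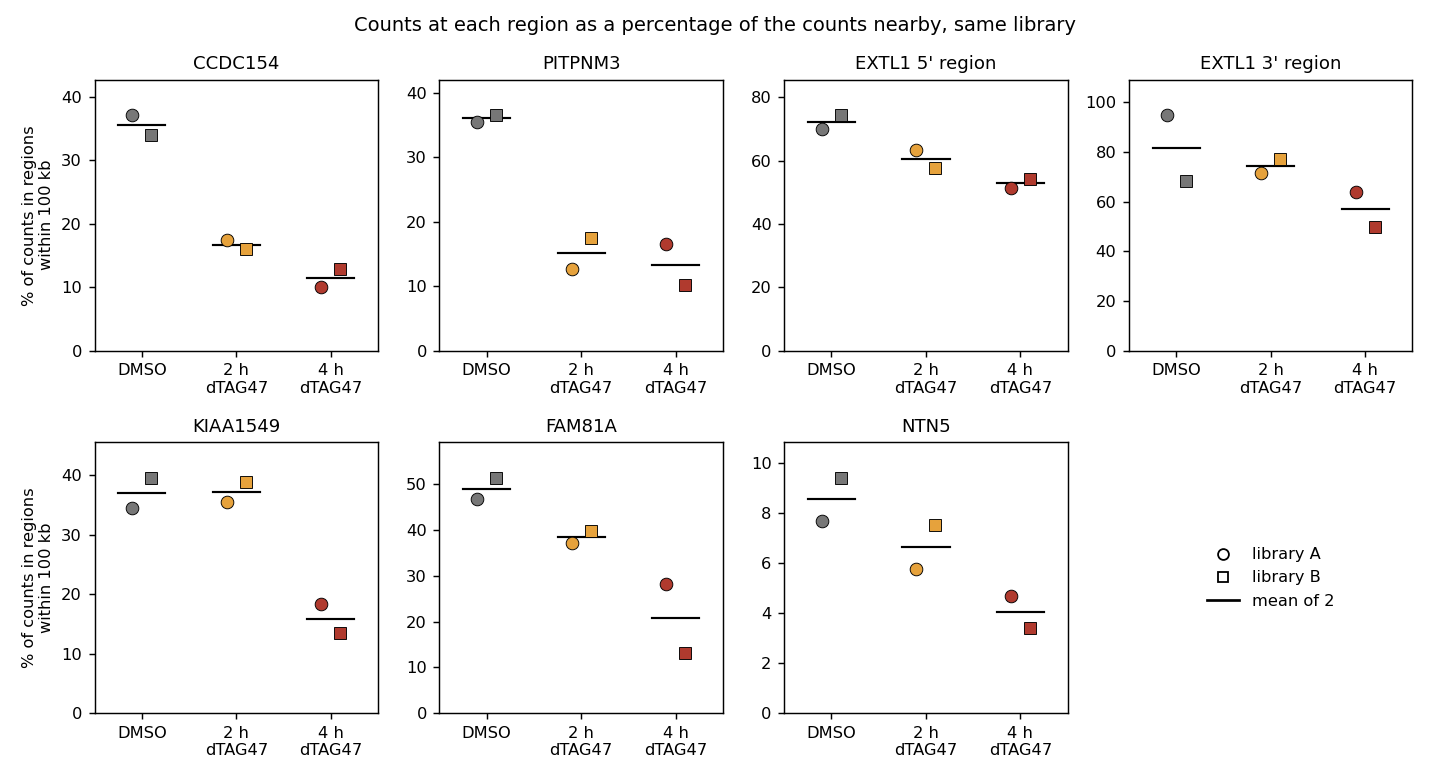
Counts at each of the 7 regions as a percentage of the summed counts of the other regions within 100 kb of its gene span in the same library (y axis, from 0), by group (x axis). Circles are library A, squares library B and bars the mean of 2; KIAA1549 has 37.1% in DMSO, 37.2% at 2 h and 15.9% at 4 h, and PITPNM3 36.0%, 15.1% and 13.4%.

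The regions elsewhere with the most similar course over the 6 libraries were found from the mean profile of the 6 genes (log2 CPM plus 0.5, centred on each region's mean, with the higher region of EXTL1). The 5 closest lay at chr9:133536057-133536457, chr9:133355675-133356075, chr11:20184907-20185307, chr1:236558531-236558931 and chr9:133377115-133377515, with root-mean-square differences from 0.138 to 0.210 log2 units. Those on chr9 lay in 1 stretch, from 133355675 to 133536457, so the 5 are not all separate places in the genome. The closest in profile had means of 241 ± 24.5 CPM in DMSO, 132 ± 17.2 CPM at 2 h and 93.0 ± 6.53 CPM at 4 h (SD, n = 2 each). Among the 7 regions themselves, NTN5 was nearest to the mean profile, at 0.151, and CCDC154 the farthest, at 0.375, with 211 regions outside the 6 genes closer to it than CCDC154. This is a description over 6 libraries that share their scaling.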

How the data were processed

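Ser5 Pol II ChIP-seq was given for 6 of the 18 samples of the series. The other 12, made with other antibodies, were not analysed here. The authors deposited raw read counts for 12123 regions that each span 400 bases; positions are printed as deposited. Builds hg19 and dm3 and the tools Bowtie2, MACS2, DESeq2, DiffBind and Trimmomatic (0.32) appear in the submitters' processing notes, without their roles. How regions were called and whether duplicates or input were removed were not given in the sources used here. No spike-in scaling was used, so a change of all regions by 1 factor would not be seen.

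Columns were tied to groups by name, and their letters to no replicate number. Libraries of a group differed by more than sampling noise (chi-square over its degrees of freedom 1.50 to 2.33). Counts of all 6 libraries were fitted in edgeR 4.0.16 by quasi-likelihood (R 4.3.3, TMM, filterByExpr, which removed 0 regions), with Benjamini-Hochberg adjustment over 12123 regions. The SE of a log2 fold change is its absolute value over the root of F. Alternatives were other scalings, filters, DESeq2 1.42.0, limma-voom (limma 3.58.1), fits of 2 groups, a block and leaving out each library. The genes, gene spans and lists were chosen with earlier results of these data known. Every region in the 6 spans is reported. An hg19 annotation was not used here, so relatives of the 6 genes, established fusion targets, muscle markers and the PAX3 and FOXO1 loci, all planned, were not located. Gene strands came from RefSeq.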

Additional observations from a re-analysis of the deposited data

How the results depend on the processing

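No alternative turned round a fold change of the 7 regions against DMSO. Of the 92 alternative values with an adjusted p at each time, 91 at 2 h and 83 at 4 h kept their side of the threshold. Among these are the values without a filter, which equal the main ones because the filter removed 0 regions. For 4 h against 2 h, PITPNM3 was higher at 4 h without 2 h library B (log2 fold change 0.13) and without 4 h library B (0.045), and these values ran from -0.52 to 0.13 with 1 library left out. DESeq2 called 1 of the 7 regions lower at 2 h and 1 at 4 h, with no adjusted p for 4 of them at each time. A minimum mean count of 50 removed KIAA1549 and FAM81A. Regions called lower among all numbered 48 at 2 h, but 87 with total count scaling, 3 with DESeq2, 81 with only the 2 groups compared and 15 to 87 with 1 library left out. At 4 h they numbered 59, but 4 with DESeq2 and 27 to 71 with 1 library left out, and 3 to 7 of the 7 regions were then called lower. Between 4 h and 2 h, 0 to 1 regions were called higher with 1 library left out. The columns' letters deviated together between groups (correlations of 0.218, 0.278 and 0.158 over regions), but match no label. A replicate block by letter gave 230 regions lower at 2 h and 203 at 4 h, among them 3 and 7 of the 7 regions. With a distance of 1 kb in place of 2.5 kb, 1 region counted as 5′ and 6 as body. Low counts at KIAA1549 and FAM81A limit the precision there.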
